A study of Brachypodium distachyon with 9 samples.

Results

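The gf14h-1 mutant was set directly against the hdac19-2b mutant of Brachypodium distachyon, a small grass used as a model for cereals. The 6 libraries compared were chosen by their genotype label, 3 of gf14h-1 and 3 of hdac19-2b, out of 9 libraries in the series, and all 28607 features of the count table were considered. A feature is an annotated gene or a non-coding transcript. The gf14h-1 plants carried a CRISPR/Cas9 mutation of GF14h, the gene of a 14-3-3 protein, and the hdac19-2b plants a CRISPR/Cas9 mutation of HDAC19, the gene of a histone deacetylase. Each mutant was homozygous for an exon 1 change that introduces a premature stop codon, in the 21-3 background shared with wild type. Each genotype is represented by a single mutant line, so line and mutated gene cannot be told apart. Plants of all genotypes grew for 18 days and then went 15 days without water, and whole aboveground shoots at the 5 leaf stage were taken 3 h after dawn. No watered plants were among the samples, so the comparison describes droughted shoots only.

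14-3-3 proteins are adaptors that bind phosphorylated serine or threonine residues and alter the activity, location or partners of the proteins they hold. Their known plant clients include transcription factors, ion pumps and kinases of hormone and stress signalling. Histone deacetylases remove acetyl groups from histone tails, a change associated with lower transcription of the wrapped gene. In Arabidopsis, HDA19 is known as the catalytic part of corepressor complexes that act in development and in responses to abscisic acid, the hormone of water deficit. The series covers drought, flowering and growth, and the direct contrast asks where the shoot transcripts of these mutants differ from each other. It does not use the wild type means.

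The gf14h-1 libraries held 17653802, 15182384 and 3302835 counts for replicates 1, 2 and 3, and the hdac19-2b libraries 17066545, 11135028 and 14568121. Wild type libraries, which have no weight in the direct contrast and there only help to estimate the spread, held 14837490, 12041696 and 36632994. The gf14h-1 libraries were less alike than the hdac19-2b libraries. The median SD of log2 CPM (read counts scaled to a common library size by TMM) across features was 0.58 in gf14h-1 and 0.30 in hdac19-2b. Among the 6 mutant libraries, gf14h-1 replicate 3 stood apart on the first principal component (38.5% of the variance) and gf14h-1 replicate 1 on the second (25.3%). Chloroplast genes took 0.973%, 1.37% and 1.47% of counts in gf14h-1 and 1.47%, 1.31% and 0.885% in hdac19-2b. The 9 chloroplast photosynthesis genes used to check for green shoot tissue were detected in all libraries and overlapped between the mutants. rbcL, the large subunit of Rubisco, had 2388 to 5334 CPM in gf14h-1 and 2451 to 5040 CPM in hdac19-2b. In whole shoots, fewer cells of a type and less RNA per cell cannot be told apart. The sources used here pair neither GF14h nor HDAC19 with a locus, so transcripts of the mutated genes are not analysed here and the genotype labels were not checked against them.

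Between the mutants, 4 features differed beyond the spread pooled over all 9 libraries, 1 higher and 3 lower in gf14h-1. The mean variance of log2 CPM was 1.07 among gf14h-1 libraries, above 0.46 among hdac19-2b libraries and 0.43 among wild type libraries. The pooled spread can therefore understate that of gf14h-1. Of the 4, only LOC100828139 also passed the threshold when the 6 mutant libraries were fitted alone. LOC100828139 was higher in gf14h-1, where hdac19-2b had almost no counts. LOC100831965, LOC100826926 and LOC100821161 were lower in gf14h-1, and LOC100831965 had no count in any gf14h-1 library. These 4 were the features called, meaning a Benjamini-Hochberg adjusted p under 0.05 in edgeR's quasi-likelihood test, out of 23898 tested (0.0167%; 1 higher, 0.00418%, and 3 lower, 0.0126%). All 4 are protein-coding genes for which the annotation used here gives a locus number and neither a gene name nor a description.

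An unadjusted p under 0.05 was reached by 2157 features (9.03%), of which 1083 were higher (4.53%) and 1074 lower (4.49%) in gf14h-1. In 3355 features (14.0%) the 3 gf14h-1 libraries did not overlap the 3 hdac19-2b libraries, 1487 with gf14h-1 above (6.22%) and 1868 with gf14h-1 below (7.82%). The median log2 fold change, always gf14h-1 over hdac19-2b, was -0.0019 over all tested features. For 9228 features (38.6%) the 95% interval of the fold change lay within a 2-fold difference either way, and this share was 45.3% of the 19683 protein-coding genes tested. For the other features a difference of 2-fold or more lies inside the interval, so a p that misses the threshold does not show that the mutants were alike there. For orientation, the same fit called 35 features in gf14h-1 against wild type (0.146%) and 65 in hdac19-2b against wild type (0.272%). These comparisons share the wild type libraries, and leaving out 1 library moved both counts. The count for gf14h-1 against wild type was lowest without wild type replicate 3, at 4, and highest without gf14h-1 replicate 3, at 51. That for hdac19-2b against wild type was lowest without hdac19-2b replicate 1, at 2, and highest without gf14h-1 replicate 3, at 190.

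The number of calls between the mutants depended on the libraries and on the tool. It was 2 without gf14h-1 replicate 1, 7 without gf14h-1 replicate 2, 2 without hdac19-2b replicate 1, and 2 without wild type replicate 2 or 3. Fitted to the 6 mutant libraries alone, the test called LOC100828139 only. DESeq2's Wald test called 282 features (1.18%), among them the 4. The count at an unadjusted p under 0.05 was 3752 without gf14h-1 replicate 3, the shallowest library, and 1418 without hdac19-2b replicate 2.

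**Figure D1:**
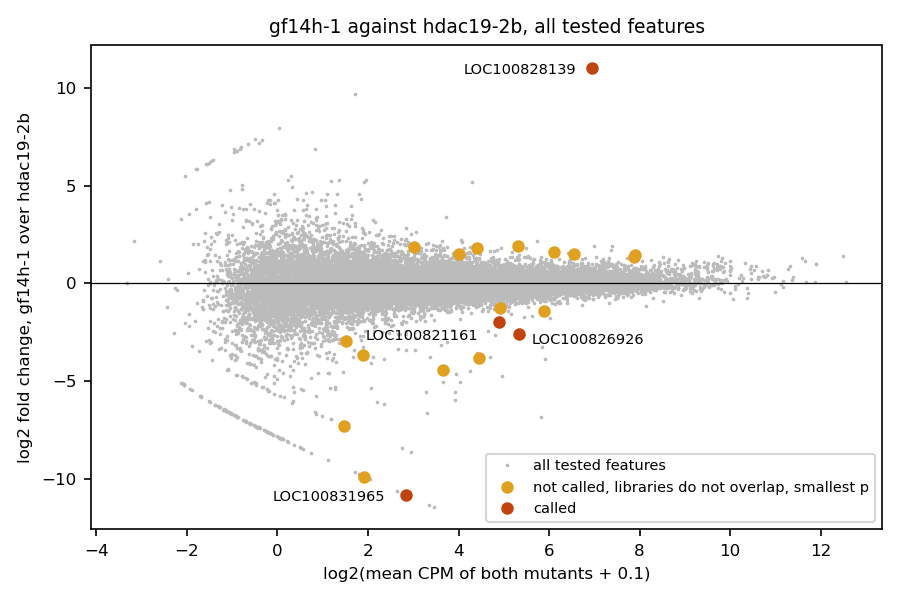
Each point is 1 of the 23898 tested features, with the log2 of its mean CPM over both mutants (plus 0.1) on the horizontal axis and its log2 fold change, gf14h-1 over hdac19-2b, on the vertical axis. The 4 called features are red, and the 16 features that were not called but had non-overlapping libraries and the smallest p are orange; LOC100828139 at 11.04 and LOC100831965 at -10.82 lie far from the mass of points at their levels.

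LOC100828139 lies on chromosome 4 (assembly Brachypodium_distachyon_v3.0, 45565309 to 45567774, plus strand). It had 192, 189 and 363 CPM in gf14h-1, against 0.289, 0 and 0 CPM in hdac19-2b. Wild type had 272, 184 and 231 CPM. Every gf14h-1 library was in or above the wild type range, and the hdac19-2b libraries together held 5 counts, all in replicate 1, where gf14h-1 held 7485. The log2 fold change was 11.04 (SE 0.67, adjusted p = 0.000108 with edgeR). As a ratio of pooled counts, gf14h-1 was 1831-fold higher, with a 95% counting interval of 784 to 5641. Set against wild type, the log2 fold change was 0.11 in gf14h-1 (SE 0.39, adjusted p = 0.987) and -10.93 in hdac19-2b (SE 0.67, adjusted p = 0.000118). The call between the mutants held under all 18 alternative settings, with a highest adjusted p of 0.036.

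LOC100831965 lies on chromosome 3 (24296889 to 24305070, plus strand). It had no count in any of the 3 gf14h-1 libraries, against 15.9, 17.4 and 9.26 CPM in hdac19-2b. Wild type had 13.1, 13.5 and 13.6 CPM, within the range of hdac19-2b. Against a floor of 3 counts over the summed gf14h-1 libraries, the gene was at least 171-fold lower in gf14h-1 (627 counts in hdac19-2b, adjusted p = 0.0016 with edgeR). The call ended in the fit to the 6 mutant libraries (adjusted p = 0.0817) and with limma's voom and sample weights (adjusted p = 0.176), and it held whichever library was left out.

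LOC100826926 lies on chromosome 5 (16196159 to 16201127, minus strand). It had 15.1, 12.2 and 6.0 CPM in gf14h-1, against 55.0, 88.6 and 64.9 CPM in hdac19-2b. Wild type had 52.9, 57.5 and 66.5 CPM. All gf14h-1 libraries lay far below all libraries of the other genotypes. The mean was 11.1 ± 4.64 CPM in gf14h-1 and 69.5 ± 17.2 CPM in hdac19-2b (SD, n = 3 each), a log2 fold change of -2.58 (SE 0.31, 95% interval -3.28 to -1.89, adjusted p = 0.0313 with edgeR).

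LOC100821161 lies on the same chromosome (13331775 to 13339322, minus strand). It had 10.2, 10.2 and 16.6 CPM in gf14h-1, against 50.1, 41.3 and 48.2 CPM in hdac19-2b. Wild type had 49.6, 55.2 and 57.5 CPM. The gf14h-1 libraries again lay below all others. The mean was 12.3 ± 3.68 CPM in gf14h-1 and 46.5 ± 4.62 CPM in hdac19-2b (SD, n = 3 each), a log2 fold change of -1.96 (SE 0.24, 95% interval -2.49 to -1.43, adjusted p = 0.0313 with edgeR).

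For LOC100826926 and LOC100821161 the fold change was stable and the call was not. Leaving out 1 library at a time, the log2 fold change stayed between -2.85 and -2.34 for LOC100826926 and between -2.18 and -1.84 for LOC100821161. Each call was lost in 8 of the 9 such fits, with adjusted p between 0.0586 and 0.138 for LOC100826926 and between 0.0586 and 0.195 for LOC100821161; both held only without gf14h-1 replicate 3. Both were also lost in the fit to the 6 mutant libraries, with adjusted p = 0.188 for LOC100826926 and adjusted p = 0.23 for LOC100821161. In gf14h-1 against wild type the log2 fold change was -2.35 for LOC100826926 (SE 0.31, adjusted p = 0.0254) and -2.18 for LOC100821161 (SE 0.24, adjusted p = 0.0104), and these calls were lost in 8 and 3 of 18 alternatives. In hdac19-2b against wild type neither gene was called (adjusted p = 1 for both).

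**Figure D2:**
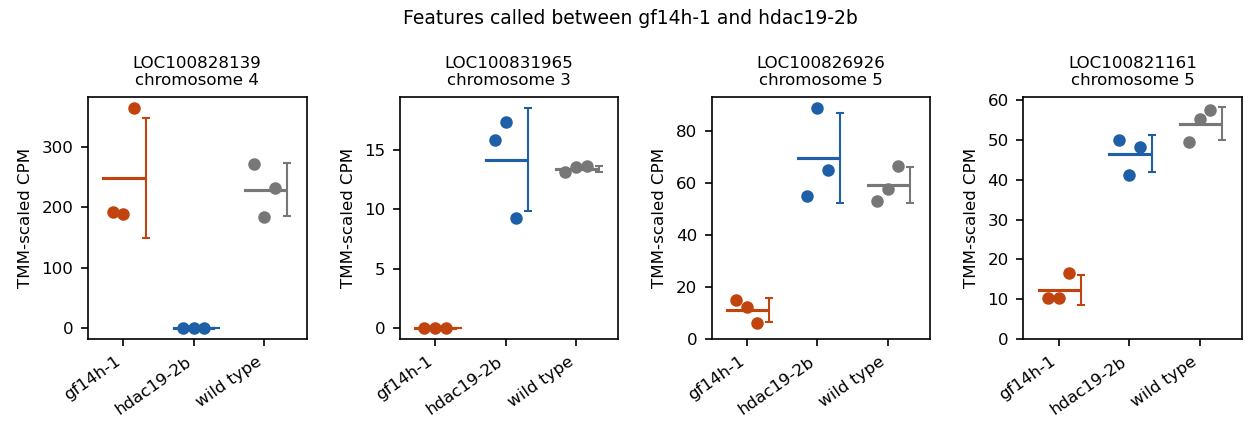
TMM-scaled CPM of the 4 called genes in each library (points) with the mean (horizontal line) and SD (error bar, n = 3) of each genotype, for gf14h-1, hdac19-2b and wild type from left to right, on a separate linear axis per gene. For LOC100828139 the hdac19-2b libraries lie at or near 0 while gf14h-1 runs from 189 to 363 CPM, and for the other genes gf14h-1 lies below both other genotypes.

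None of their 8 nearest tested protein-coding neighbours was called. LOC100823629, which ends 2018 bp before LOC100828139, had 109, 72.9 and 128 CPM in gf14h-1 and 90.8, 90.0 and 136 CPM in hdac19-2b. On the other side, 1547 bp away, LOC104584776 had 7.08, 4.39 and 15.2 CPM in gf14h-1 and 8.89, 12.6 and 8.88 CPM in hdac19-2b. Both ranges overlapped, so the near absence of LOC100828139 counts in hdac19-2b was not shared by either neighbour. Beside LOC100826926, LOC100827538 had 64.2, 83.7 and 84.3 CPM in gf14h-1 and 52.0, 52.5 and 56.6 CPM in hdac19-2b, which did not overlap and ran in the other direction (log2 fold change 0.52, SE 0.20, adjusted p = 0.469). Beside LOC100821161, LOC100833970 had 4.29, 4.39 and 2.12 CPM in gf14h-1 and 5.49, 4.90 and 6.15 CPM in hdac19-2b, both below the 11.1, 13.0 and 12.5 CPM of wild type. Between the mutants its log2 fold change was -0.56 (SE 0.34, adjusted p = 0.685).

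Beyond the 4 calls, 16 features were taken for description. They are the 8 in each direction with the smallest p among features that were not called and whose mutant libraries did not overlap. Their adjusted p in edgeR's test ran from 0.0729 to 0.267, so none passed. DESeq2's Wald test called all 16 and limma's voom none. None has a gene name or description in the annotation. Because the rule used this contrast, their fold changes are given as a description.

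Among those with more transcript in gf14h-1, LOC100823302 (chromosome 1) had 363, 273 and 369 CPM in gf14h-1, against 136, 141 and 124 CPM in hdac19-2b. Wild type, at 198, 243 and 210 CPM, lay between the mutants without touching either. The log2 fold change was 1.32 (SE 0.21, adjusted p = 0.154). LOC100837499 (chromosome 3) showed the same order, with 135, 104 and 176 CPM in gf14h-1, 49.3, 46.5 and 50.2 CPM in hdac19-2b, and 94.4, 62.2 and 85.1 CPM in wild type. LOC100822040 (chromosome 3) had 31.9, 26.3 and 40.6 CPM in gf14h-1 against 6.06, 12.2 and 9.77 CPM in hdac19-2b, a log2 fold change of 1.81 (SE 0.32). Wild type reached down to the top of hdac19-2b there, with 19.6, 12.2 and 16.6 CPM. LOC100829177 (chromosome 2) had 92.8, 38.5 and 57.9 CPM in gf14h-1 against 11.8, 22 and 16.2 CPM in hdac19-2b.

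For LOC100828770 and LOC100843760 it was hdac19-2b that stood below wild type. LOC100828770 (chromosome 1) had 24.4, 26.3 and 19.8 CPM in gf14h-1, against 9.53, 7.01 and 8.56 CPM in hdac19-2b. Wild type had 28.2, 28.6 and 24.0 CPM and overlapped gf14h-1. LOC100843760 (chromosome 2) had 16.6, 12.9 and 7.76 CPM in gf14h-1, 2.66, 3.63 and 4.12 CPM in hdac19-2b, and 10.5, 11.6 and 11.4 CPM in wild type. LOC100828770 fell in hdac19-2b against wild type (log2 fold change -1.68, SE 0.23, adjusted p = 0.0168), a call lost in 6 of 18 alternatives.

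For LOC100842686 and LOC100843563 it was gf14h-1 that stood above wild type. LOC100842686 (chromosome 4) had 68.7, 118 and 125 CPM in gf14h-1, against 40.8, 37.0 and 26.0 CPM in hdac19-2b. Wild type overlapped hdac19-2b, with 34.9, 29.1 and 47.8 CPM. LOC100843563 (chromosome 2) had 282, 252 and 523 CPM in gf14h-1, 123, 133 and 127 CPM in hdac19-2b, and 83.4, 98.2 and 87.0 CPM in wild type, so that both mutants lay above wild type. It rose in gf14h-1 against wild type (log2 fold change 1.97, SE 0.28, adjusted p = 0.033), a call lost in 8 of 18 alternatives.

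Among the features with less transcript in gf14h-1, LOC112270984 (chromosome 2, 34069281 to 34072988) was seen in hdac19-2b only. It had no count in any gf14h-1 library and none in any wild type library, against 8.14, 6.0 and 7.99 CPM in hdac19-2b. The 338 counts of hdac19-2b make it at least 92.1-fold lower in gf14h-1 against the floor of 3 counts over the summed libraries. Against wild type the gene rose in hdac19-2b (adjusted p = 0.0216), a call lost in 6 of 18 alternatives. LOC100826117 (chromosome 2) was also highest in hdac19-2b, with 0.483, 1.77 and 1.06 CPM in gf14h-1, 41.5, 18.8 and 11 CPM in hdac19-2b, and 3.00, 1.40 and 5.27 CPM in wild type. Its log2 fold change of -4.42 was -5.23 without gf14h-1 replicate 2 and -3.75 without hdac19-2b replicate 1.

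LOC100838681 (chromosome 2) had 35, 30.4 and 30.7 CPM in gf14h-1, against 79.3, 76.3 and 104 CPM in hdac19-2b. LOC100830914 (chromosome 2) had 17.8, 16.8 and 18.0 CPM in gf14h-1, against 44.6, 38.8 and 44.1 CPM in hdac19-2b. In both genes wild type lay between the mutants without overlap, at 64.0, 56.0 and 41.0 CPM for LOC100838681 and 33.8, 25.2 and 23.7 CPM for LOC100830914. LOC100823447 (chromosome 2) had 3.81, 1.18 and 4.23 CPM in gf14h-1, against 38.4, 39.0 and 43.4 CPM in hdac19-2b, while wild type spread from 5.77 to 37.3 CPM. LOC100840562 (chromosome 4) had 0.698, 0.524 and 0.706 CPM in gf14h-1, against 3.98, 4.90 and 5.77 CPM in hdac19-2b and 3.29, 4.02 and 3.42 CPM in wild type. The log2 fold change of LOC100840562 was -2.94 (SE 0.51) for this feature and -0.94 (adjusted p = 0.357) with the counts of all features of the locus summed.

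Over the 16 features, the wild type mean lay between the 2 mutant means in 12, beyond the gf14h-1 mean in 1 and beyond the hdac19-2b mean in 3. Over all 3355 features with non-overlapping mutant libraries it lay between them in 2266 (67.5%), beyond gf14h-1 in 495 and beyond hdac19-2b in 594. The share among the 16 is close to that background. By chromosome, 8 of the 16 lie on chromosome 2, which held 5411 of the 23898 tested features. Of these, LOC112270984, LOC100843760, LOC100843563 and LOC100838681 fall within the stretch from 34069281 to 36265111, with the first and last lower and the other two higher in gf14h-1. That stretch held 165 tested features, of which 28 (17.0%) had an unadjusted p under 0.05 and 29 (17.6%) did not overlap. Over chromosome 2 these shares were 9.28% and 14.7%, and over all features 9.03% and 14.0%. The stretch was picked after these positions were seen, and the 4 genes that define it are counted in it.

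**Figure D3:**
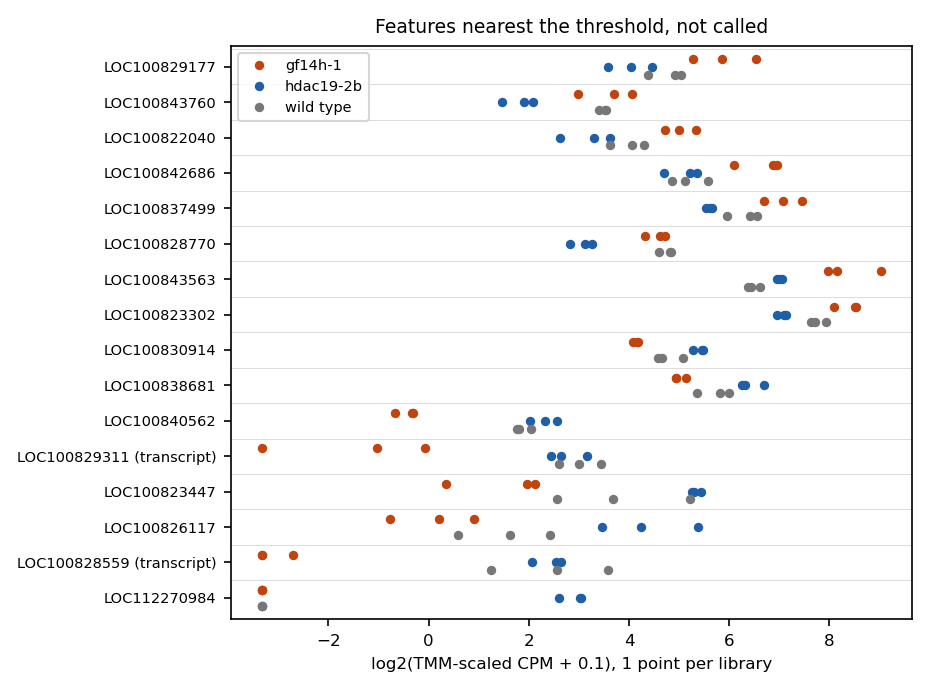
The log2 of TMM-scaled CPM plus 0.1 of the 16 features nearest to the threshold, 1 row per feature, with points for each library of gf14h-1, hdac19-2b and wild type. By the rule, the gf14h-1 and hdac19-2b points do not overlap in any row; wild type points lie between them in some rows and with 1 mutant in others.

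Of the 16 features, 2 are non-coding transcripts of protein-coding loci that are annotated with several features, and there the groups overlapped in the total of the locus. At LOC100829311 (chromosome 3, minus strand, 47663776 to 47673763) the transcript XR_002965573.1 had 0.859, 0.393 and 0 CPM in gf14h-1, against 5.31, 6.16 and 8.82 CPM in hdac19-2b. Wild type overlapped hdac19-2b, with 6.0, 10.8 and 7.90 CPM. The transcript XR_002965575.1 of the same locus had the opposite pattern, with 9.93, 2.75 and 6.35 CPM in gf14h-1 and no count in any hdac19-2b library. Wild type had 0, 0.328 and 0 CPM of it.

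Summed over its 5 features, LOC100829311 had 13.6, 8.13 and 7.76 CPM in gf14h-1, against 9.64, 9.20 and 12.2 CPM in hdac19-2b. Wild type had 7.86, 12.6 and 10.9 CPM. The log2 fold change of the sum was -0.04 (SE 0.32, adjusted p = 0.984). Neither transcript passed the test between the mutants, with adjusted p = 0.166 for XR_002965573.1 and adjusted p = 0.297 for XR_002965575.1. In gf14h-1 against wild type XR_002965573.1 fell (log2 fold change -3.94, SE 0.61, adjusted p = 0.0425), a call lost in 10 of 17 alternatives. Both transcripts have the same start and end. Their exon structures were not compared, and how counting divided reads that fit more than 1 transcript is not given in the sources used here.

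**Figure D4:**
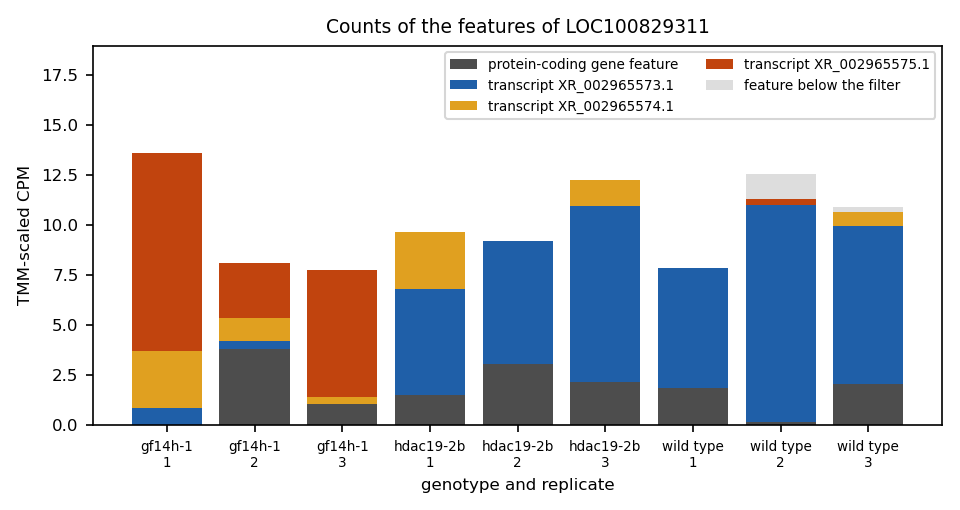
Stacked TMM-scaled CPM of the annotated features of LOC100829311 in each library of gf14h-1, hdac19-2b and wild type. The height of the stacks is similar across genotypes, while transcript XR_002965575.1 takes a large part of the stack in the gf14h-1 libraries and transcript XR_002965573.1 in those of hdac19-2b and wild type.

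LOC100828559 (chromosome 5) has 10 tested features. Its transcript XR_001404762.2 had 1 count over the gf14h-1 libraries, against 236 over those of hdac19-2b, or 4.10, 5.74 and 6.15 CPM. Wild type had 2.29, 11.9 and 5.80 CPM. The pooled ratio put hdac19-2b 193-fold higher, with a 95% counting interval of 34.3 to 7653 and an adjusted p of 0.0729 in edgeR's test. The sum over the 10 features was 27.5, 26.7 and 10.9 CPM in gf14h-1, against 16.3, 32.9 and 36.9 CPM in hdac19-2b (log2 fold change -0.36, SE 0.42, adjusted p = 0.851). The same caution about reads shared between transcripts holds here.

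In 12 of the 28607 features all gf14h-1 libraries had no count while every hdac19-2b library had at least 1 CPM. The reverse was seen in 1 feature, XR_002965575.1. LOC100831965 was the only called one of the 13. Of the 12, 3 are protein-coding genes, namely LOC100831965, LOC112270984 and LOC100830100, and the others are lncRNAs or non-coding transcripts. LOC100830100 had no count in gf14h-1, against 3.00, 3.29 and 1.97 CPM in hdac19-2b, and 4 counts over the wild type libraries (adjusted p = 0.312). The floor of 3 counts lies at 0.908 CPM in gf14h-1 replicate 3, the shallowest library, so absence at 1 CPM rests mainly on gf14h-1 replicates 1 and 2. Features with any count numbered 24218, 26238 and 23016 in gf14h-1, against 26418, 26072 and 26728 in hdac19-2b. The part of that difference in the 12 against 1 was not tested.

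Genes with a name or description numbered 211, of which 162 were tested. None was called, and 23 had an unadjusted p under 0.05 (11 higher and 12 lower in gf14h-1). These 23 are 14.2%, against the 9.03% of all features. In 33 (20.4%, against 14.0% of all features) the mutant libraries did not overlap. DESeq2 called 6 of the 162, against 282 of all 23898 tested (1.18%). The named genes are largely chloroplast genes and a few families, not a sample of the genome. The gene lists were read from these names, and no list had a member that edgeR called.

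The abscisic acid pathway was represented by SnRK2 kinases, some of which phosphorylate its targets, and by protein phosphatases 2C, which hold such kinases inactive. Which of the SnRK2 genes listed here act in that pathway was not tested. Of the 9 SnRK2 kinases tested, 3 had an unadjusted p under 0.05, all higher in gf14h-1, and 4 did not overlap, all with gf14h-1 above. Over all features the shares were 4.53% for a higher value at that p and 6.22% for libraries that did not overlap with gf14h-1 above. Their median log2 fold change was 0.42 (lowest -0.07, highest 0.80), against -0.0019 over all features. LOC100843625, described as SAPK5-like, had 67.9, 53.7 and 103 CPM in gf14h-1, against 45.8, 43.9 and 38.0 CPM in hdac19-2b. Wild type, at 84.1, 64.7 and 63.9 CPM, overlapped gf14h-1. The log2 fold change was 0.80 (SE 0.25, adjusted p = 0.414).

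The SAPK7-like gene LOC100831269 (log2 fold change 0.60, SE 0.20) and the SAPK7 gene LOC100831909 (0.42, SE 0.18) were the other two under an unadjusted p of 0.05, with adjusted p = 0.441 for LOC100831269 and adjusted p = 0.516 for LOC100831909. LOC100831269 had 70.3, 58.7 and 48.7 CPM in gf14h-1 and 38.6, 37.1 and 42.4 CPM in hdac19-2b. Among 5 features of phosphatases 2C and the bZIP factor TRAB1, an activator of abscisic acid responses in rice, none had an unadjusted p under 0.05. The smallest was that of LOC100830931, described as probable protein phosphatase 2C 50, with 32.1, 25.5 and 33.2 CPM in gf14h-1 and 20.4, 22.2 and 26.7 CPM in hdac19-2b (log2 fold change 0.38, SE 0.23, adjusted p = 0.664).

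Other stress relays showed no difference past the threshold. None of the 10 MAP kinase cascade genes had an unadjusted p under 0.05, and their median log2 fold change was 0.11. The nearest was MPK3, with 34.2, 44.7 and 66 CPM in gf14h-1 and 37.7, 21.3 and 21.9 CPM in hdac19-2b (log2 fold change 0.82, SE 0.43, adjusted p = 0.622). Wild type had 170, 48.6 and 83.3 CPM of MPK3. Among the 4 calcineurin B-like sensors and their kinases none had an unadjusted p under 0.05. The CBL-interacting kinase LOC100831178, 1 of the 4 (25%, against 14.0% of all features), did not overlap. It had 0.322, 3.02 and 2.47 CPM in gf14h-1 and 4.68, 5.74 and 3.93 CPM in hdac19-2b (adjusted p = 0.618).

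C-repeat binding factors are activators of cold and dehydration genes. CBF7 had 2.79, 6.03 and 3.88 CPM in gf14h-1, against 2.83, 2.11 and 1.21 CPM in hdac19-2b, while wild type had 65.6, 12.2 and 22.9 CPM. The mutants overlapped each other and both lay below all wild type libraries; the direct log2 fold change was 1.05 (SE 0.61, adjusted p = 0.658). Against wild type, CBF7 was called in hdac19-2b (log2 fold change -4.03, SE 0.63, adjusted p = 0.0261 with edgeR) and not in gf14h-1 (log2 fold change -2.97, SE 0.61, adjusted p = 0.129). How that call fared under the alternative settings is not given here. CBF5 had no count in either mutant, against 5.79, 0.739 and 1.29 CPM in wild type.

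MADS-box factors direct flowering time and floral organ identity. Of 31 annotated ones 23 were tested, 5 had an unadjusted p under 0.05 (3 higher and 2 lower in gf14h-1), and 7 did not overlap. These are 21.7% and 30.4% of those tested, against 9.03% and 14.0% of all features. The median log2 fold change was 0.41, against -0.0019 over all features. LOC100841720, described as MADS-box transcription factor 3, a floral organ identity factor in rice, had 1.07, 0.852 and 1.76 CPM in gf14h-1, against 5.26, 3.55 and 5.77 CPM in hdac19-2b. Wild type lay between them at 1.86, 3.53 and 2.44 CPM, without overlapping either. The log2 fold change was -2.06 (SE 0.56, adjusted p = 0.391). LOC100841167, described as MADS-box transcription factor 50-like after a flowering activator of rice, was the other one with lower values in gf14h-1, at 1.02, 4.52 and 6.0 CPM, against 9.64, 7.85 and 15.4 CPM in hdac19-2b (log2 fold change -1.59, SE 0.59, adjusted p = 0.465).

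The non-coding transcript XR_002962763.1 of LOC100824579, described as AGL14-like, ran the other way, with 36.9, 31.3 and 49.4 CPM in gf14h-1, against 26.1, 22.2 and 12.7 CPM in hdac19-2b and 36.1, 35.3 and 48.6 CPM in wild type (log2 fold change 0.94, SE 0.30, adjusted p = 0.414). The protein-coding feature of LOC100824579 overlapped between the mutants, with 9.18, 18.7 and 36.3 CPM in gf14h-1 and 15.1, 9.54 and 7.61 CPM in hdac19-2b (log2 fold change 0.95, SE 0.44, adjusted p = 0.567). Both features of this locus are counted among the MADS-box factors above. The 8 NAC factors tested, all SWN genes by symbol or synonym and named for switching on secondary wall formation, held 1 with an unadjusted p under 0.05. That is 12.5%, near the 9.03% of all features. The NAC factor was SWN5, with 5.96, 10.8 and 6.35 CPM in gf14h-1 and 5.20, 3.29 and 3.3 CPM in hdac19-2b (log2 fold change 0.98, SE 0.40, adjusted p = 0.493). MIR396E, a microRNA precursor whose product targets growth-regulating factors in other plants, had 3.27, 4.26 and 8.47 CPM in gf14h-1 and 2.25, 0.676 and 2.6 CPM in hdac19-2b (adjusted p = 0.487). It was 1 of 2 among the 10 microRNA precursors tested with an unadjusted p under 0.05 (20%, against 9.03% of all features). MIR9494, with lower values in gf14h-1, was the other. Of 15 small nucleolar RNAs none had an unadjusted p under 0.05.

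Both polyubiquitin genes, which encode precursors of the protein degradation tag, had higher values in gf14h-1. LOC100832168 had 1134, 1240 and 1576 CPM in gf14h-1, against 807, 689 and 764 CPM in hdac19-2b. Wild type, at 703, 574 and 748 CPM, overlapped hdac19-2b. LOC100841406 had 1415, 1606 and 2209 CPM in gf14h-1, against 1101, 981 and 1016 CPM in hdac19-2b, and 1064, 802 and 1112 CPM in wild type. The log2 fold changes were 0.81 (SE 0.22, adjusted p = 0.391) for LOC100832168 and 0.76 (SE 0.24, adjusted p = 0.414) for LOC100841406. DESeq2 called both, and edgeR and voom neither. Their coding repeats are near identical, so reads may be divided between copies in a way the sources used here do not describe.

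Chloroplast genes more often had lower values in gf14h-1, with fitted log2 fold changes below 0 for 52 of the 81 tested and a median of -0.24. An unadjusted p under 0.05 was reached by 11 of them (13.6%, against 9.03% of all features), 2 higher and 9 lower in gf14h-1. Poly(A) selection counts these transcripts only in so far as they passed it. The chloroplast share of counts overlapped between the mutants, and its part in the result was not tested.

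Features of chloroplast ribosomal protein genes made up 7 of those 11. The 24 features tested stand for 19 genes, since 5 are counted as 2 inverted-repeat copies. Of the 24, 7 (29.2%, against 9.03% of all features) had an unadjusted p under 0.05, 1 higher and 6 lower in gf14h-1. These 7 stand for 6 genes, with rpl2 in both copies. The median log2 fold change of the 24 was -0.36. One copy of rps19 (chloroplast 134869 to 135150) had 1.99, 2.10 and 0.706 CPM in gf14h-1, against 6.70, 7.01 and 6.09 CPM in hdac19-2b and 4.43, 6.07 and 5.24 CPM in wild type (log2 fold change -1.94, SE 0.44, adjusted p = 0.297). The inverted-repeat copy overlapped between the mutants, with 2.47, 3.74 and 6.35 CPM in gf14h-1 and 5.66, 7.85 and 3.11 CPM in hdac19-2b, and the division of reads between copies is uncertain. With both copies summed, the log2 fold change of rps19 was -1.10. rpl14 had 37.6, 58.9 and 37.4 CPM in gf14h-1, against 78.5, 66.5 and 79.5 CPM in hdac19-2b, and 97.0, 78.7 and 76.1 CPM in wild type (log2 fold change -0.74, SE 0.23, adjusted p = 0.404).

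In rps3 it was hdac19-2b that stood apart, with 0.376, 0.262 and 0 CPM in gf14h-1, 5.08, 4.31 and 2.09 CPM in hdac19-2b, and 0, 0.164 and 0.364 CPM in wild type (log2 fold change -3.84, SE 1.12, adjusted p = 0.393). The exception in direction was rpl36, with 5.96, 12.9 and 2.47 CPM in gf14h-1, against 0.404, 0.169 and 0 CPM in hdac19-2b and 1.43, 5.83 and 2.10 CPM in wild type. Its 315 counts in gf14h-1 and 9 in hdac19-2b gave a pooled ratio of 42.8 (95% counting interval 22.3 to 94.5), and the replicate-based test gave an adjusted p of 0.297. Its log2 fold change of 5.16 was 4.43 without gf14h-1 replicate 2 and 6.44 without hdac19-2b replicate 1.

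Chloroplast genes of photosynthesis mostly overlapped. Of 16 photosystem genes tested none had an unadjusted p under 0.05, and the median log2 fold change was 0.09. Only psbI did not overlap there (6.25%, against 14.0% of all features), with gf14h-1 below (log2 fold change -2.19, SE 1.45, adjusted p = 0.713). Of 11 cytochrome, ATP synthase and Rubisco genes tested, 1 had an unadjusted p under 0.05. That is 9.09%, near the 9.03% of all features. The gene was atpH, with 1.4, 0.852 and 2.82 CPM in gf14h-1, against 3.58, 5.4 and 3.24 CPM in hdac19-2b. Its log2 fold change was -1.37 (SE 0.58, adjusted p = 0.519), and wild type overlapped both mutants. Of the 11 NADH dehydrogenase features tested, ndhH alone had an unadjusted p under 0.05, again 9.09%. It had 4.72, 7.14 and 4.94 CPM in gf14h-1, against 16.9, 8.28 and 12.9 CPM in hdac19-2b. Wild type had 8.64, 11.2 and 11 CPM of ndhH (log2 fold change between the mutants -1.17, SE 0.34, adjusted p = 0.393). For rpoB, a subunit of the chloroplast RNA polymerase, gf14h-1 had 2.63, 2.16 and 1.06 CPM and hdac19-2b 5.37, 4.64 and 5.77 CPM (log2 fold change -1.36, SE 0.46, adjusted p = 0.439). Of the 10 genes in its list, rpoB alone had an unadjusted p under 0.05 (10%, near the share of all features). In that list 9 genes, rpoB included, had fitted values below 0, and the median was -0.43.

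**Figure D5:**
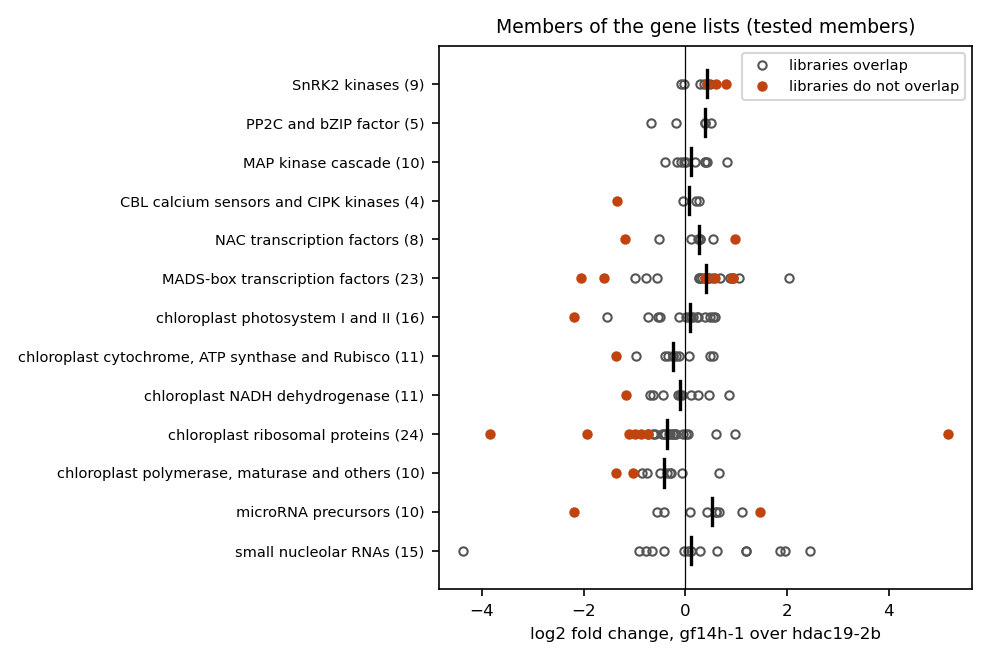
Log2 fold change, gf14h-1 over hdac19-2b, of every tested member of the lists with at least 3 tested members (points, filled where the libraries of the mutants do not overlap) and the median of each list (short bar), with the number of members in brackets; the vertical line at 0 marks no difference. SnRK2 kinases (median 0.42) and MADS-box factors (0.41) lie mostly to the right, and chloroplast ribosomal protein genes (-0.36) mostly to the left with rpl36 far to the right; no point is a called feature.

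An unadjusted p under 0.05 was seen in 9.14% of protein-coding genes, 7.0% of lncRNAs, 8.95% of pseudogenes and 10.9% of non-coding transcripts of protein-coding genes. Smaller classes lay farther from the 9.03% of all features, with 11 of 81 chloroplast features, 2 of 10 microRNA precursors, 1 of 68 other RNAs and 0 of 15 small nucleolar RNAs. Across the 5 chromosomes the share ran from 8.44% to 9.49%, against the background of 9.03%. Precision differed more than the share, since the interval lay within a 2-fold difference for 7.58% of lncRNAs and 2.69% of non-coding transcripts.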

How the data were processed

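RNA was extracted with TriReagent from whole droughted shoots and poly(A) selected, per the labels' protocols. Estimated counts per RefSeq feature were deposited by the authors, where the design used here had assumed raw counts. From 69.1% to 83.2% of a library's values were whole to within 0.001, and the table was rounded to integers before testing. A second deposited table holds normalized signal, counts divided by 1 factor per library (a median ratio normalization, by the authors' naming). It returned whole reads, to within 0.1, for 99.93% to 100% of values, lacks 153 features, and served as an alternative on which edgeR called 4 features. Partek, FastQC 0.11.9, HISAT2 and DESeq2 are named in the submitters' processing notes. What each did, the counting program and any use of strand are not stated in those sources, so reads of overlapping, antisense or near-identical features cannot be told apart.

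Tests used edgeR 4.0.16 in R 4.3.3, with 1 quasi-likelihood fit to all 9 libraries, genotype as the only term, TMM scaling and the default expression filter (23898 features, 99.88% of counts). The contrast was gf14h-1 minus hdac19-2b, wild type having weight 0. P-values were Benjamini-Hochberg adjusted over all tested features, and those under 0.05 were called. The SE is the absolute log2 fold change over the square root of the F statistic. A floor of 3 counts corresponds to 0.0819 to 0.908 CPM per library. Counting intervals and floors cover counting error only. Alternatives were DESeq2 1.42.0, limma 3.58.1 voom with sample weights, other scaling and filters, 6 libraries only, sums per gene symbol, a replicate block, and leaving out each library. The fit was tested on simulated data with 1 spread per feature for all genotypes, so without the larger spread of gf14h-1. It recovered 11.9% of 2-fold, 84.7% of 4-fold and 91.3% of 8-fold changes there, and called 9 unchanged features. Replicates were compared pairwise, and all pairs differed by more than counting noise.

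Features named are the called ones, the 8 per direction with the smallest p among uncalled features whose mutant libraries did not overlap, the 5 per direction with the smallest p among genes with a name or description, and the smallest p of most lists. The smallest p was not named for the lists of lignin and cell wall, metal transport, sphingolipid and lipid, and small nucleolar RNA features. LOC100831269, LOC100831909, LOC100841167, MIR9494, LOC100830100, XR_002965575.1 and neighbours named for their values were added after their values were seen. So were CBF5 and the protein-coding feature of LOC100824579. The members and lists were chosen with earlier results of these data known. Of 23 lists, 18 had a tested member. The lists of 14-3-3 proteins, histone deacetylases and chromatin, flowering time, calcium-dependent protein kinases and other transcription factors had none. Symbols came from the deposited annotation and a RefSeq table of Brachypodium_distachyon_v3.0, which gave a symbol for 28598 features and shared 98.5% of starts. Coordinates are 1-based on that assembly.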

Additional observations from a re-analysis of the deposited data

Results flagged for a closer look

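The differences between the mutants that passed the adjusted threshold are gathered here because the difference between the mutants was itself tested. The edgeR quasi-likelihood test of the difference itself gave an adjusted p of 0.000108 for LOC100828139, which was near absent in hdac19-2b and in or above the wild type range in gf14h-1. LOC100831965, without a count in gf14h-1 and around the wild type values in hdac19-2b, had an adjusted p of 0.0016. LOC100826926 and LOC100821161, lower in gf14h-1 than in hdac19-2b in 3 of 3 libraries, each had an adjusted p of 0.0313, and both calls were lost in 10 of 18 alternatives. The cause of these differences was not tested.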

How the results depend on the processing

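Calls between the mutants (4) came to 282 with DESeq2, 1 with only the 6 libraries compared and 2 with the replicate block, and to 2 to 7 when 1 library was left out. Calls of gf14h-1 against wild type (35) came to 357 with DESeq2, 4 with only the 6 libraries compared, 4 with the replicate block and 16 with voom, and to 4 to 51 with 1 library left out. Calls of hdac19-2b against wild type (65) came to 566 with DESeq2, 235 with only the 6 libraries compared, 12 with the replicate block, 393 with voom and 152 with counts summed per gene symbol, and to 2 to 190 with 1 library left out. The cause of these shifts was not tested. Other scaling, other filters and the recovered reads gave 4 calls between the mutants each. Same-numbered libraries of the mutants did not deviate together (correlations -0.12, -0.004 and -0.11 for numbers 1, 2 and 3). No library correlated best with its own number in another genotype. The labels give no batch, and whether libraries with the same number were handled together is not known. For the 30 named features no alternative turned the direction. These features were picked by call, non-overlap or smallest p in this same contrast. A turn was therefore hardly possible, and its absence is no support for them. Of 540 values for these features under the alternatives, 495 stayed on their side of the threshold, 23 passed it newly and 22 lost it. Depth was lowest in gf14h-1 replicate 3 (3302835 counts), and the 95% interval lay within a 2-fold difference for 38.6% of features.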
